A study of Mus musculus with 235 samples.

Results

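The response to dexamethasone was measured in mouse hippocampal tissue labelled dCA1 (dorsal CA1), in 28 of the 235 libraries of the series. These are the dCA1 libraries of 13 animals given dexamethasone at 10 mg/kg and of 15 animals given saline, both by intraperitoneal injection, and were chosen by their region and treatment labels alone. All animals were C57Bl/6 males of 3 months, and their brains were perfused and removed 4 h after the injection. Each library held the RNA of 1 animal's dCA1 punch and counted the 3' ends of messenger RNAs, with molecular identifiers to remove amplification copies. The 30 animals of the study, 28 of which are used here for dCA1, also gave punches of dDG, vCA1, vDG, AMY, CER, PFC and PVN, which enter only as a comparison.

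Dexamethasone is a synthetic agonist of the glucocorticoid receptor, which waits in the cytoplasm in a complex with the chaperone Hsp90 and its partners. Once bound by hormone the receptor moves to the nucleus, where it raises or lowers the transcription of target genes, among them Fkbp5 and Tsc22d3. In the hippocampus, CA1 pyramidal cells and the granule cells of the neighbouring dentate gyrus both carry the receptor, and so do astrocytes, microglia and vessel cells.

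The dCA1 punches held much RNA of dentate granule cells. The dentate level of a library, taken as the mean log2(CPM + 1) of 12 granule cell marker genes, had a median of 6.01 in the vehicle libraries of dCA1 (range 4.65 to 6.48), where CPM is the depth-scaled count (counts per 1000000), here scaled over all 235 libraries. In vehicle libraries of dDG, the dorsal dentate punches, the median was 5.79 (range 3.12 to 6.56), and in vCA1 it was 3.70 (range 2.70 to 4.42), so that every vehicle dCA1 library lay above every vehicle vCA1 library. The CA1 level, the same measure over 9 CA1 pyramidal markers, had a median of 4.58 in vehicle dCA1, 5.01 in vehicle dDG and 5.58 in vehicle vCA1. In vDG, the ventral dentate punches, the dentate level had a vehicle median of 4.42 (range 3.34 to 5.77), below that of dDG, and Dsp averaged 22.2 CPM there against 115 CPM in dDG. The markers thus differed between dorsal and ventral punches as well, and in a comparison of dCA1 with vCA1 dentate content and dorsal or ventral position cannot be told apart. By these levels the tissue labelled dCA1 was nearer to dDG than to vCA1, and its dentate median was higher and its CA1 median lower than those of dDG, which goes against its label. Whether the label or the position of the punches gives this was not tested, so that dCA1 and dDG below name the tissue under each label and no cell field.

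Of 8573 genes, 120 (1.4%) differed between dCA1 and dDG in edgeR's quasi-likelihood test with the animal as a block (adjusted p under 0.05), or 54 with no block, and of 8712 genes, 1841 (21.1%) differed between dCA1 and vCA1. Prox1, the transcription factor that sets granule cell identity, was higher in dCA1 than in vCA1 by 2.38 ± 0.15 on the log2 scale (SE, adjusted p 2.52e-12). The desmosome gene Dsp was higher by 3.99 ± 0.23 (SE, adjusted p 4.66e-13), and C1ql2, a synapse organiser of mossy fibres, by 3.16 ± 0.17 (SE, adjusted p 3.15e-13). The CA1 marker Mpped1 was lower in dCA1 than in vCA1, with a difference of -1.30 ± 0.25 (SE, adjusted p 0.00026), as were Man1a (-1.34, adjusted p 0.000146) and Spink8 (-1.02, adjusted p 0.00196). The other tested CA1 markers, Wfs1 (-0.05, adjusted p 0.892), Fibcd1 (-0.22, adjusted p 0.691) and Pou3f1 (-0.71, adjusted p 0.0586), did not pass. In bulk tissue, fewer cells of a type and less RNA per cell cannot be told apart.

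**Figure D1:**
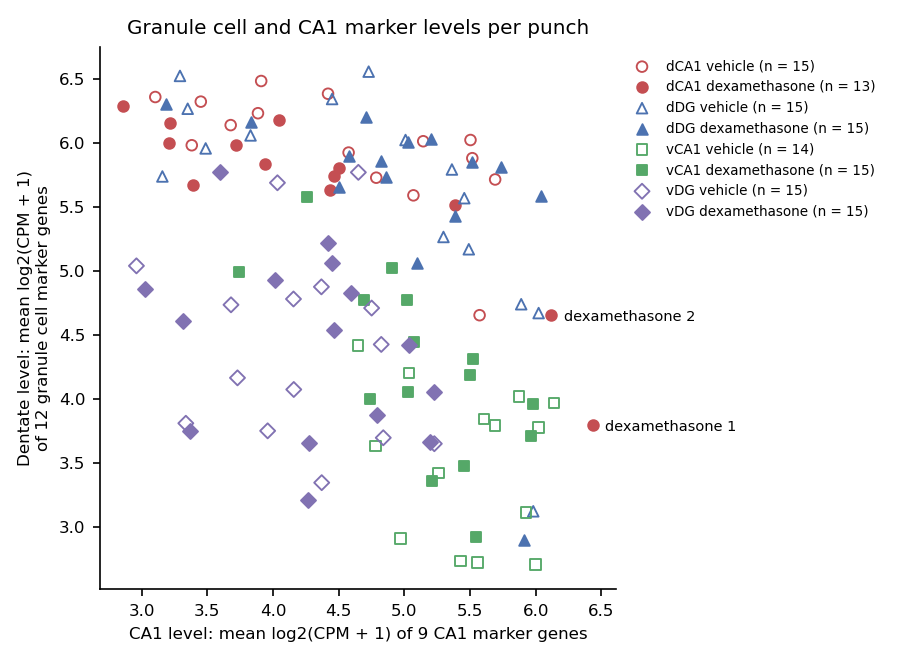
Dentate level (vertical, mean log2(CPM + 1) of 12 granule cell markers) against CA1 level (horizontal, the same over 9 CA1 markers) in each library of the 4 hippocampal regions, 1 point per library, open for vehicle and filled for dexamethasone. Most dCA1 points lie among the dDG points and above the vCA1 points, with dexamethasone library 1 the lowest of dCA1 at 3.79.

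A few dCA1 libraries stood apart. Dexamethasone libraries 1 and 2 had the lowest dentate levels of their arm, 3.78 and 4.65 on the dCA1 scale, where the other libraries of the arm began at 5.50, and they had the highest CA1 levels, 6.42 and 6.11. Their RNA integrity numbers (RIN) were 6.2 and 3.9. Vehicle library 4 had the lowest dentate level of its own arm, 4.70 where the others began at 5.59, with a CA1 level of 5.62 and a RIN of 4.2. All 3 came from punching date 1, whose 7 libraries had CA1 levels between 5.07 and 6.42. These 7 shared 1 cryostat label that no other dCA1 library carried, so that date 1 and cryostat cannot be told apart. Vehicle library 4 also had a low total of 297943 counts and a summed level of 17 astrocyte markers of 30095 CPM, where the other 27 libraries held between 9451 and 17336 CPM. Its summed microglial level was 1770 CPM, where the others held between 406 and 1104 CPM. The mean dentate level was 0.33 lower in the dexamethasone arm than in the vehicle arm, with ranges of 3.78 to 6.25 and 4.70 to 6.48 on the dCA1 scale. The mean CA1 level was also lower, at 4.27 against 4.50. The dentate axis, the mean log2(CPM + 1) of genes higher in vDG than in vCA1 minus that of genes higher in vCA1, had means of -0.45 in the dexamethasone and -0.37 in the vehicle arm, while its medians were -0.04 and -0.35. Totals ran from 297943 to 1451422 counts and RIN from 3.9 to 8.3. The arms' mean RIN differed by 0.174 (two-sided permutation p 0.697, adjusted p 0.697) and their mean totals by 88288 counts (two-sided permutation p 0.318, adjusted p 0.637 over these 2 measures).

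Of 8715 genes that passed the expression filter, 408 (4.68%) changed between the arms at an adjusted p under 0.05 (edgeR's quasi-likelihood test). After dexamethasone 224 genes (2.57%) were higher and 184 (2.11%) lower, and the median absolute log2 fold change of the 408 was 0.60. At least a 2-fold change was seen in 62 of them, 42 higher and 20 lower. The arms did not overlap in any library for 17 genes (0.195% of those tested), 15 higher and 2 lower, and all 17 passed the test. Within each of the 4 plates 390 of the 408 genes kept their direction, and 394 did so within each of the 4 punching dates that held at least 2 libraries of each arm. Adding the dentate level to the model as a covariate turned the split, to 271 higher and 342 lower, whereas the dentate axis as a covariate gave 266 higher and 255 lower with all 224 and 184 reported genes among them. The 12 genes of the dentate level include Plk5, C1ql2 and Pdzd2, which themselves changed with the treatment, and the dentate axis holds Plk5, C1ql2 and other genes that changed, so that both covariates carry part of the response. Without dexamethasone libraries 1 and 2 it was 216 and 181, and without vehicle library 4 it was 270 and 195.

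**Figure D2:**
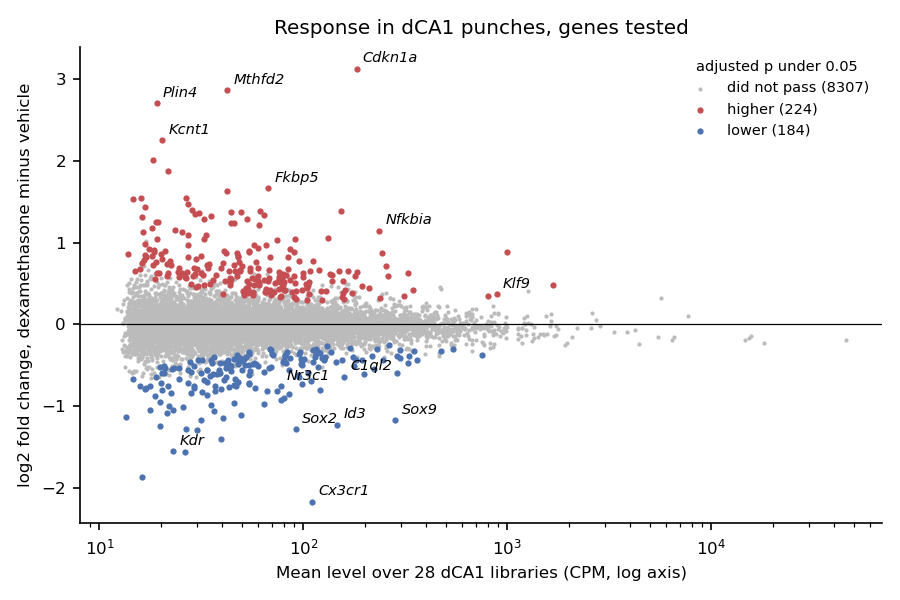
Log2 fold change, dexamethasone minus vehicle, of each tested gene (vertical) against its mean CPM over the 28 dCA1 libraries (horizontal, log axis), with 224 genes higher in red, 184 lower in blue and 8307 that did not pass in grey. The largest rises belong to Cdkn1a, Mthfd2, Plin4 and Kcnt1, and the largest fall of the labelled genes to Cx3cr1.

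Nearly all tested members of a list of known glucocorticoid receptor targets rose. The list was chosen with earlier results of these data known, so that its share gives no independent support. Of 20 listed glucocorticoid response genes 16 were tested, 15 rose and none fell, where 2.57% of all tested genes rose. The list median was 0.90 on the log2 scale, and that of all genes tested was -0.01. Fkbp5 (ENSMUSG00000024222, chromosome 17, 28399095 to 28517524, minus strand, GRCm38), whose product FKBP51 holds the receptor in a low-affinity state, had a lowest, median and highest level of 19.0, 30.9 and 52.2 CPM in vehicle libraries and of 77.9, 107 and 138 CPM in dexamethasone libraries. Every dexamethasone library was above every vehicle library, and the log2 fold change was 1.66 (adjusted p 1.26e-13, SE 0.12). The same separation was seen for Nfkbia, the inhibitor that keeps NF-kappaB in the cytoplasm, at 84.4, 143 and 218 CPM for vehicle and 239, 336 and 404 CPM for dexamethasone, with a log2 fold change of 1.15 (adjusted p 5.44e-09, SE 0.12). Tsc22d3, which encodes the anti-inflammatory protein GILZ, went from 41.5, 68.2 and 164 CPM to 149.6, 226 and 287 CPM. Its arms overlapped slightly, since 1 vehicle value reached the lower end of the dexamethasone range, and its log2 fold change was 1.39 (adjusted p 2.26e-08, SE 0.16).

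Other listed targets moved by different amounts. The ErbB receptor inhibitor Errfi1 rose by 1.37 on the log2 scale, the mTOR brake Ddit4 by 1.04, the zinc finger gene Zbtb16 by 0.93 and the kinase gene Sgk1 by 0.77. Klf9, an abundant transcription factor gene with a vehicle median of 773 CPM and a dexamethasone median of 1025 CPM, rose by only 0.37 (adjusted p 0.000312, SE 0.07). Dusp1, a phosphatase that switches off stress kinases, rose by 0.61 (adjusted p 0.0267, SE 0.17). With the replicate number as a block its adjusted p was 0.0547, within a range over the alternatives of 0.0178 to 0.0922. Such ranges leave aside the fits without 1 library. The clock gene Per1 was the tested member that did not pass, at 0.28 (adjusted p 0.312, SE 0.13). Plin4, a coat protein of lipid droplets, was close to absent in vehicle libraries (0, 3.78 and 17.9 CPM) and reached 12.8, 25.5 and 67.7 CPM after dexamethasone, a log2 fold change of 2.70 (adjusted p 1.08e-06, SE 0.36).

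The transcript of the glucocorticoid receptor itself was lower. Its gene, Nr3c1, fell from 68.0, 96.3 and 157 CPM to 43.2, 50.2 and 78.3 CPM, a log2 fold change of -0.76 (adjusted p 7.1e-06, SE 0.11), and all but the highest dexamethasone values lay below the vehicle range. Nr3c2, the gene of the mineralocorticoid receptor, stood at 43.5, 74.3 and 88.2 CPM in vehicle and 54.4, 60.2 and 102 CPM in dexamethasone libraries, and its change of -0.15 (adjusted p 0.602, SE 0.10) did not pass. Of 18 receptor and chaperone genes 16 were tested, of which Fkbp5 alone rose and Nr3c1 alone fell, beside 2.57% and 2.11% of all tested genes, and the median was -0.04.

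**Figure D3:**
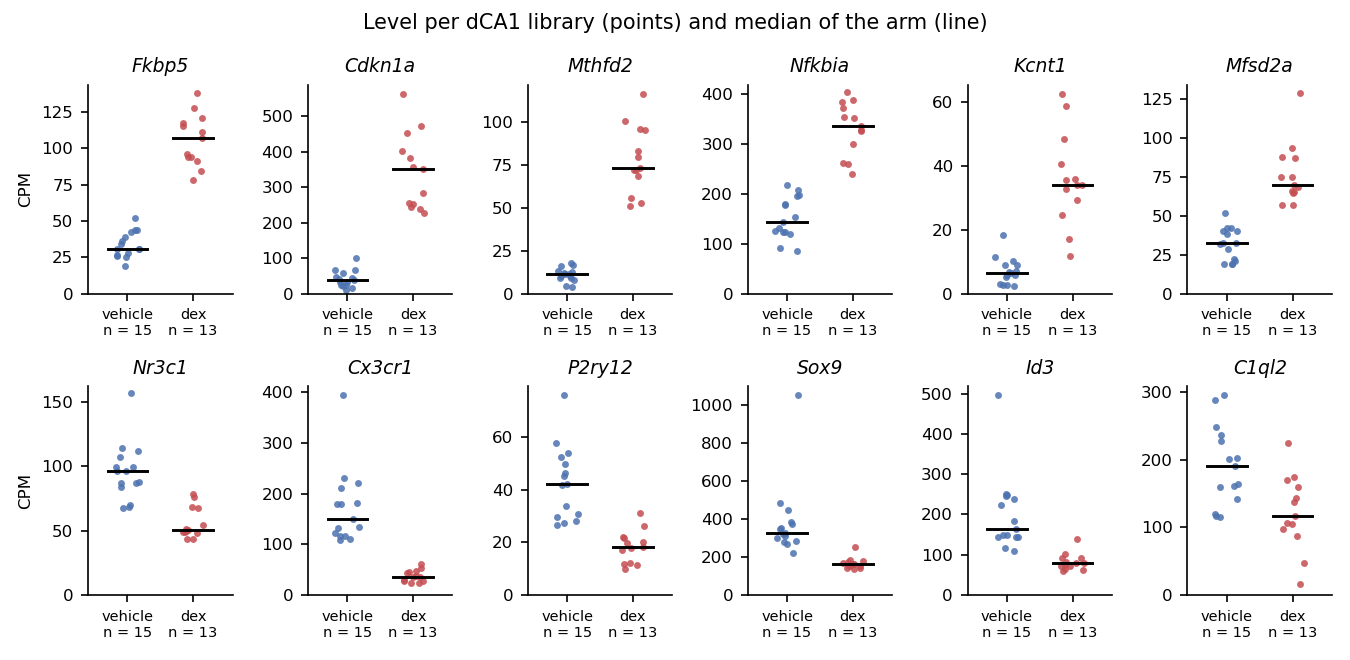
Level in CPM of 12 genes in each dCA1 library, 1 point per library with the median of each arm as a line (15 vehicle, 13 dexamethasone). Fkbp5, Cdkn1a, Mthfd2, Nfkbia, Mfsd2a and Cx3cr1 show no overlap between the arms, while Kcnt1, Nr3c1, P2ry12, Sox9, Id3 and C1ql2 overlap.

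The receptor binds a pair of short inverted sites, and the promoter windows of risers were searched for its best known form, GNACA, any 3 bases and TGTNC, on both strands. The pattern reads the same on both strands and was found in 156 of 32851 RefSeq windows of 300 bases (0.475%). Of 21 risers looked up, 17 had a window, in 26 windows, and Sgk1 alone held a match. Its window (GRCm38.p6, chr10:21993640-21993939, plus strand) is printed 5' to 3' because it carries that match, which is in capitals and begins at position -188 from the start site.
Sgk1: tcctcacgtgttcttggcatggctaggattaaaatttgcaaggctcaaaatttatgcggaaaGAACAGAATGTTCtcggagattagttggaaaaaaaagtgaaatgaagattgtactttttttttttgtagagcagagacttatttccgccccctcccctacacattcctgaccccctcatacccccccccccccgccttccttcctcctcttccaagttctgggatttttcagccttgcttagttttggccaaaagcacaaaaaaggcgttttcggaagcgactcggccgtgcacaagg
The match describes letters in this window, and binding there was not measured. Sgk1, which encodes a kinase that acts on ion channels and transporters, went from 33.6, 69.4 and 112 CPM to 80.0, 119 and 173 CPM, with a log2 fold change of 0.77 (adjusted p 8.95e-05, SE 0.13), and its arms overlapped.

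The largest rise among genes with a mean of at least 5 CPM was that of Cdkn1a (ENSMUSG00000023067, chromosome 17, 29090979 to 29100722, plus strand), which encodes the cell cycle inhibitor p21. It lay at 10.2, 36.8 and 99.2 CPM in vehicle and 227, 351 and 562 CPM in dexamethasone libraries, with no overlap and a log2 fold change of 3.13 (adjusted p 1.12e-14, SE 0.20). Of 18 p53 targets and cell cycle brakes 11 were tested, of which 5 rose and 1 fell, beside 2.57% and 2.11% of all tested genes. The other risers were Trp53inp1, a p53-induced autophagy gene (log2 fold change 1.63, SE 0.15, adjusted p 6.1e-10, arms apart), the stress gene Gadd45g (1.24), the atypical cyclin Ccng1 (0.82) and the mTOR regulator Sesn1 (0.33). Ccnd1, cyclin D1, which drives cells into the cycle, had a log2 fold change of -0.97 (adjusted p 0.00886, SE 0.24).

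Of 24 listed genes of insulin, FoxO and mTOR control 22 were tested, of which 6 rose (2.57% of all tested genes did), none fell and 16 did not pass. The list median was 0.06, and 13 of the 22 values were above 0. Txnip, which limits glucose uptake, rose by 1.24 (adjusted p 3.21e-06, SE 0.18), from a vehicle median of 26.8 CPM to 60.8 CPM, and the insulin receptor substrate Irs2 rose by 0.66 (adjusted p 3.76e-06, SE 0.09), from ranges of 101 to 184 CPM to 169 to 294 CPM. Sgk3 rose by 1.09, beside Ddit4, Sgk1 and Sesn1.

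Mthfd2 (ENSMUSG00000005667, chromosome 6, 83305691 to 83325908, minus strand), a mitochondrial enzyme of one-carbon metabolism, had the smallest p of all genes. It stood at 3.53, 11.3 and 17.9 CPM in vehicle and 50.9, 73.1 and 116 CPM in dexamethasone libraries, and its log2 fold change was 2.86 (adjusted p 3.66e-16, SE 0.16). The counts of the 3 lists that follow stand beside the 2.57% of all tested genes that rose. The list that holds Mthfd2, of 29 amino acid and one-carbon genes, had 21 members tested, of which Mthfd2 and the glutamine transporter Slc38a2 (0.31) rose and none fell, while the list median was -0.15. With the dentate level as a covariate 3 members of this list were lower and its median was -0.24, and without the libraries of RIN under 5 Slc38a2 did not pass (0.31, adjusted p 0.0544, range over the alternatives 0.0129 to 0.0544, and up to 0.0811 with 1 library left out). Further strong risers were Pnpla2, the first lipase of lipid droplet breakdown (log2 fold change 1.47, SE 0.19, adjusted p 4.92e-07), Ppp1r3g, a glycogen-targeting phosphatase subunit (1.54), and Xdh, an enzyme of purine breakdown that makes urate (1.53). Abca1, which exports cholesterol, rose by 0.97 and was the single gene to pass among 19 tested sterol and fatty acid genes. Of 17 heat shock and folding genes tested, the inducible Hspa1b passed alone, at 0.85, though its reads can be split with its near-identical copy Hspa1a.

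Of all tested genes 4.68% changed, and the lists of kinase and inflammatory feedback are set beside that share. Of 13 tested genes of MAPK and G protein feedback, 3 rose (Errfi1, the Ras-like Rasd1 at 1.13 and Dusp1) and 3 fell, namely the growth factor antagonist Spry2 (log2 fold change -0.90, SE 0.11, adjusted p 6.82e-08), Rgs2 (-0.42) and Dusp7 (-0.41). Of 8 tested genes of the NF-kappaB pathway and mRNA decay, Nfkbia and Zfp36 rose and Zfp36l1 fell. Zfp36 encodes a protein that destroys mRNAs of inflammatory mediators, and it went from 4.45, 7.26 and 31.4 CPM to 20.3, 35.7 and 55.8 CPM, a log2 fold change of 1.87 (adjusted p 1.37e-08, SE 0.20). Its relative Zfp36l1 changed by -0.73 (adjusted p 0.00116, SE 0.15). In the TGF-beta, BMP and Id list, 1 of 21 tested genes rose (the BMP effector Smad1, 0.65) and 3 fell, with a median of -0.12. The fallers were Id3, a partner that blocks basic helix-loop-helix factors (log2 fold change -1.23, SE 0.16, adjusted p 1.18e-06), the receptor Tgfbr1 (-0.55) and Smad3, the effector of TGF-beta (-0.42).

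Counts in the lists of neuronal function stand beside the 4.68% of all tested genes that changed. Of all 8715 tested genes 1178 had an unadjusted p under 0.05. Among 37 tested potassium and HCN channel genes 1 rose and 2 fell, among 29 glutamate and GABA receptor genes 1 fell (Gabra2, -0.26, adjusted p 0.0406), and among 14 activity-regulated genes 1 fell (Jun, -0.52). None of 22 sodium and calcium channel genes and none of 39 adhesion and guidance genes passed in edgeR, with 5 members of each list at an unadjusted p under 0.05. Once the dentate level entered the model, 1 of the 22 channel genes, 3 of the 14 activity-regulated genes and 2 of the 29 receptor genes were lower. Without dexamethasone libraries 1 and 2, or without the libraries of RIN under 5, 0 of the 29 receptor genes were lower. Gria2, an AMPA receptor subunit, illustrates the level of these transcripts, at 851, 1556 and 2097 CPM in vehicle and 1225, 1731 and 2237 CPM in dexamethasone libraries, with overlapping arms (log2 fold change 0.13, SE 0.11, adjusted p 0.735). Of 71 tested nuclear genes of oxidative phosphorylation and 78 of cytosolic ribosomal proteins none passed, with 2 and 0 at an unadjusted p under 0.05.

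A potassium channel gene that rose was Kcnt1 (ENSMUSG00000058740, chromosome 2, 25863734 to 25918273, plus strand), a potassium channel opened by intracellular sodium. It was low in vehicle libraries, at 2.49, 6.54 and 18.2 CPM, and stood at 11.7, 34.1 and 62.5 CPM after dexamethasone. The arms met at their edges, where 1 vehicle library passed the lowest dexamethasone libraries, and the log2 fold change was 2.26 (adjusted p 7.71e-09, SE 0.24). The fallers of the list were Kcnj9, a subunit of G protein-gated channels (log2 fold change -0.61, SE 0.15, adjusted p 0.00766), and Kcnip3, a calcium sensor that binds Kv4 channels (log2 fold change -0.50, SE 0.13, adjusted p 0.0144). Kcnip3 did not pass without punching date 1 (-0.44, adjusted p 0.0597) or without the libraries of RIN under 5 (-0.41, adjusted p 0.0534), and its adjusted p over the alternatives ran from 0.00656 to 0.0597.

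Of 28 tested regulators of the actin cytoskeleton 3 rose and 2 fell, beside 2.57% and 2.11% of all tested genes. The atypical GTPase Rhou had arms apart, with 20.2 to 59.8 CPM in vehicle and 64.0 to 147 CPM in dexamethasone libraries (log2 fold change 1.34, SE 0.14, adjusted p 1.22e-08), and Rhob and the exchange factor Arhgef3 each rose by 0.53. Cdc42ep4 (-0.71) and the membrane protein gene Marcks (-0.33) fell. Without punching date 1, Marcks did not pass (-0.21, adjusted p 0.271), and its adjusted p over the alternatives ran from 0.00238 to 0.271. Among 9 Kruppel-like factors Klf15 (0.84) and Klf9 rose and Klf10 (-0.67) and Klf16 (-0.58) fell. Among 17 tested clock genes 3 fell, namely the nuclear receptor Rorb (-0.73), the output factor Dbp (-0.60) and Bhlhe41 (-0.36).

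**Figure D4:**
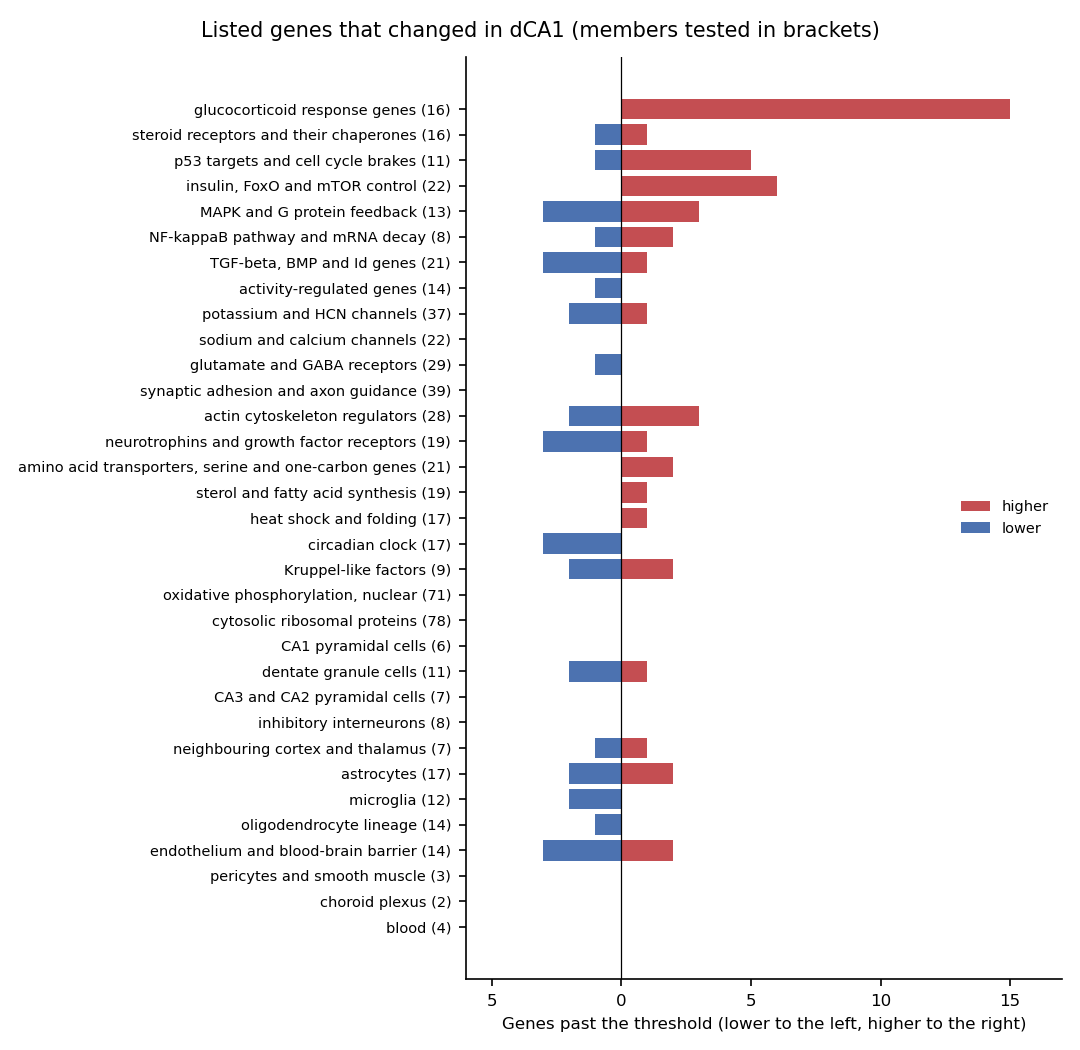
Number of genes of each list that passed the threshold in dCA1, higher to the right and lower to the left, with the number of members tested in brackets. Glucocorticoid response genes lead with 15 of 16 higher, and 2 neuronal lists and both housekeeping lists have no bar. The lists were chosen with earlier results of these data known.

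Of the microglial markers, 2 of the 12 tested fell and none rose, where 2.11% of all tested genes fell. The median log2 fold change of the 12 was -0.20, with 3 above 0, and the mean log2(CPM + 1) of the 20 listed markers differed by -0.57 between the arms. Cx3cr1 (ENSMUSG00000052336, chromosome 9, 119901616 to 120068283, minus strand), the fractalkine receptor through which microglia sense neurons, had the largest fall of all genes with a mean of at least 5 CPM. It stood at 109, 149.6 and 394 CPM in vehicle and 24.2, 35.4 and 60.9 CPM in dexamethasone libraries, with no overlap and a log2 fold change of -2.17 (adjusted p 5.39e-12, SE 0.17). P2ry12, the purine receptor that guides microglial processes, fell from 26.5, 42.3 and 76.2 CPM to 9.75, 18.4 and 31.2 CPM (log2 fold change -1.17, SE 0.17, adjusted p 3.21e-06), and its arms overlapped at their edges. The arms of 2 further microglial genes, which did not pass, overlapped. The growth factor receptor gene Csf1r had medians of 42.1 and 42.4 CPM (log2 fold change -0.19, SE 0.18, adjusted p 0.788), and the complement gene C1qa 52.9 and 45.9 CPM (log2 fold change -0.20, SE 0.18, adjusted p 0.764). The summed level of the 20 microglial markers ran from 572 to 1770 CPM in vehicle and from 406 to 839 CPM in dexamethasone libraries. Without vehicle library 4, which held 394 CPM of Cx3cr1, the changes were -2.07 for Cx3cr1, -1.13 for P2ry12, -0.06 for Csf1r and -0.08 for C1qa. Nrros, a gene that microglia use in TGF-beta activation, rose from 1.48, 7.26 and 22.4 CPM to 12.2, 33.2 and 40.1 CPM (log2 fold change 2.01, SE 0.21, adjusted p 4.89e-09).

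Sox9, which sets astrocyte identity, went from 219, 324 and 1053 CPM to 138, 161 and 252 CPM (log2 fold change -1.17, SE 0.15, adjusted p 6.54e-07). The stem cell factor Sox2 went from 68.7, 115 and 242 CPM to 37.4, 49.3 and 69.1 CPM (log2 fold change -1.28, SE 0.14, adjusted p 1.63e-08), and in both genes only the top of the dexamethasone range reached the vehicle range. Sox21 (-1.57), the Notch target Hes5 (-1.28) and Sox10, the master regulator of oligodendrocytes (log2 fold change -1.06, SE 0.16, adjusted p 6.77e-06), were also lower. Vehicle library 4 held 1053 CPM of Sox9, and without it the changes were -1.0 for Sox9, -1.21 for Sox2 and -1.10 for Id3.

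The glial counts stand beside 2.57% of all tested genes that rose and 2.11% that fell. Of 17 astrocyte markers 2 rose, the folate enzyme Aldh1l1 (0.72) and the connexin Gjb6 (0.66), and 2 fell, Sox9 and the water channel Aqp4 (log2 fold change -0.44, SE 0.13, adjusted p 0.0491). Without vehicle library 4 the value for Aqp4 was -0.33 (adjusted p 0.072), in a range over the alternatives of 0.00173 to 0.211. The summed astrocyte level ran from 9451 to 30095 CPM in vehicle and from 9553 to 16251 CPM in dexamethasone libraries. Of 14 tested oligodendrocyte genes Sox10 alone passed, and fell. With the dentate level as a covariate 1 astrocyte marker was higher and 6 were lower, and 4 microglial and 4 oligodendrocyte markers were lower. Without dexamethasone libraries 1 and 2, 2 oligodendrocyte markers were lower. The summed oligodendrocyte level ran from 2043 to 7707 CPM and from 2103 to 6146 CPM. The part of cell content in these differences was not tested.

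Of 14 tested endothelial and blood-brain barrier genes 2 rose and 3 fell, beside 2.57% and 2.11% of all tested genes. Mfsd2a, the lipid transporter that keeps the barrier tight, had arms apart, at 18.8, 32.2 and 52.0 CPM and 57.0, 69.6 and 129 CPM (log2 fold change 1.29, SE 0.15, adjusted p 2.66e-08). The glucose transporter Slc2a1 went from 45.1, 87.6 and 157 CPM to 135, 181 and 237 CPM (log2 fold change 1.06, SE 0.14, adjusted p 1.26e-06). The VEGF receptor genes Kdr and Flt1 fell, Kdr from 14.5, 26.5 and 85.1 CPM to 1.62, 11.1 and 18.9 CPM (log2 fold change -1.55, SE 0.23, adjusted p 9.69e-06) and Flt1 by a log2 fold change of -0.80 (adjusted p 0.00014, SE 0.14), and so did the organic anion transporter Slco1a4 (log2 fold change -0.85, SE 0.16, adjusted p 0.000245). The adhesion gene Mcam changed by -1.25. The summed level of the 20 listed vessel markers ran from 559 to 1631 CPM in vehicle and from 570.2 to 924 CPM in dexamethasone libraries. Without vehicle library 4 the values were -1.46 for Kdr, -0.70 for Flt1, -0.73 for Slco1a4 and 1.12 for Slc2a1. In the list of growth factor genes, of 19 tested, Fgfr1 rose (0.46) and Fgfr2 (-0.57), Kdr and Flt1 fell.

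Of 11 tested granule cell markers 1 rose and 2 fell, beside 2.57% and 2.11% of all tested genes, with a median log2 fold change of -0.36. An unadjusted p under 0.05 was seen for 6 of the 11, where 1178 of all 8715 tested genes had one. Plk5, a kinase-like gene, went from 22.4, 83.8 and 126 CPM to 4.46, 45.4 and 83.2 CPM (log2 fold change -0.82, SE 0.19, adjusted p 0.00562), and C1ql2 from 115, 190.1 and 295 CPM to 15.6, 117 and 224 CPM (log2 fold change -0.64, SE 0.19, adjusted p 0.0411). Pdzd2 rose from 17.9, 53.9 and 92.6 CPM to 26.8, 102 and 136 CPM (log2 fold change 0.64, SE 0.16, adjusted p 0.0125), and the arms of all 3 genes overlapped. Prox1 had medians of 522 and 410.4 CPM and did not pass (log2 fold change -0.36, SE 0.18, adjusted p 0.404). None of 6 tested CA1 markers passed, with 0 at an unadjusted p under 0.05 and a median of -0.11. With the dentate level as a covariate 4 of the 6 CA1 markers were lower and the median was -0.79.

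A broader set was taken from the ventral punches. In vehicle animals 63 genes were at least 2-fold higher in vDG than in vCA1 and 36 at least 2-fold higher in vCA1, and 50 and 27 of them were tested in dCA1. Of the 50 dentate-side genes 2 rose and 5 fell, beside 2.57% and 2.11% of all tested genes, with a median of -0.12. At an unadjusted p under 0.05 were 18 of the 50, and 1178 of all 8715 tested genes. Of the 27 CA1-side genes none passed, with 4 at an unadjusted p under 0.05. Of these 27 genes 10 were lower with the dentate level as a covariate, and 2 were lower without dexamethasone libraries 1 and 2. Beside Plk5 and C1ql2, the fallers were the co-receptor Cdon (log2 fold change -0.78, SE 0.17, adjusted p 0.00204), the synaptic vesicle gene Sv2c (-0.81) and the protocadherin Fat4 (-0.59). With the replicate number as a block Fat4 did not pass (-0.56, adjusted p 0.0513, range over the alternatives 0.012 to 0.131). Fam43a (log2 fold change 1.04, SE 0.17, adjusted p 5.79e-05) and the copper protein gene Cp (0.73) rose. Without dexamethasone libraries 1 and 2, C1ql2 did not pass (-0.48, adjusted p 0.0558), and its adjusted p over the alternatives ran from 2.5e-05 to 0.0822.

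The remaining marker lists, of other cells a punch could hold, stand beside the 4.68% of all tested genes that changed. An unadjusted p under 0.05 was seen for 1178 of all 8715 tested genes. Of 7 tested CA3 and CA2 markers and 8 interneuron markers none passed, with 2 and 1 at an unadjusted p under 0.05. Of 7 tested markers of neighbouring cortex and thalamus, Prkcd was higher (0.69) and Rorb lower. None of 3 pericyte, 2 choroid plexus and 4 blood genes passed, with 0 at an unadjusted p under 0.05.

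Several strong changes fell outside these groups. Fzd4, a Wnt receptor, rose from 4.21, 14.1 and 27.4 CPM to 23.5, 42.3 and 62.5 CPM (log2 fold change 1.54, SE 0.18, adjusted p 7.64e-08). The arms of Fzd4 overlapped at their edges. No overlap was seen for the fatty acid elongation enzyme Hacd2 (log2 fold change 1.37, SE 0.12, adjusted p 8.1e-11), the galactosyltransferase B4galt1 (1.32), Tm6sf1 (1.29) and Smim3 (1.39). Among the fallers were Rasl10a, a Ras-like gene, at 21.0, 52.3 and 103 CPM and 11.1, 22.2 and 30.9 CPM (log2 fold change -1.40, SE 0.19, adjusted p 1.05e-06), the ubiquitin ligase gene Trim59 (-1.29) and the uncharacterised 2810459M11Rik (-1.87).

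Some of the smaller changes sat close to the threshold. When each of the 28 libraries was left out in turn, 10 of 91 named genes that changed lost their call at least once. Cp lost it without any 1 of 20 libraries, Aqp4 of 19, Bhlhe41 of 18, Prkcd of 15, C1ql2 of 14, Gabra2 and Slc38a2 of 13, Dusp1 of 5, and Jun and Klf10 of 4. The highest adjusted p so reached was 0.10, for Bhlhe41, and all 10 genes kept their direction. Without punching date 1, which was chosen after seeing the data, Aqp4, Cp, Dusp1, Fat4, Gabra2, Kcnip3, Marcks, Net1, Prkcd and Tgfbr1 (-0.43, adjusted p 0.122) did not pass. Under the dentate level covariate Aldh1l1 (0.53, adjusted p 0.055), Cp, Fat4, Gabra2, Klf10 and Smad3 did not. Without dexamethasone libraries 1 and 2 the call was lost for Aldh1l1, C1ql2, Cp, Dusp1, Gabra2, Jun, Klf10 and Smad3. Without the libraries of RIN under 5 it was lost for Aqp4, Bhlhe41, C1ql2, Cp, Gabra2, Kcnip3, Prkcd and Slc38a2. The adjusted p over the alternatives ran from 0.00773 to 0.122 for Tgfbr1 and from 0.00148 to 0.055 for Aldh1l1.

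An interaction term between region and treatment, with the animal as a block, asked whether the dCA1 response differed from that of other regions (edgeR). Against dDG, 0 of 9418 genes (0%) passed, with 527 at an unadjusted p under 0.05, and without the filter on low counts 29 of 19521 did. The smallest p values belonged to the Rac activator Tiam1 (-0.64), Fzd4 (1.13) and the translation factor Eif4a2 (-0.80), the first and second with an adjusted p of 0.205 and the third with 0.637. Without the filter on low counts all 3 passed, as did Kcnt1 (1.20, adjusted p 0.00759). Over the alternatives the adjusted p ran from 0.00173 to 0.9999 for Tiam1, from 0.000682 to 0.9999 for Fzd4, from 0.00983 to 0.9999 for Eif4a2 and from 0.00759 to 0.9999 for Kcnt1. The log2 fold change of Fzd4 was 0.39 in dDG and did not pass there, where it stood at 13.7, 26.4 and 50.6 CPM in vehicle and 16.3, 37.1 and 69.4 CPM in dexamethasone libraries.

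Against vCA1, 8 of 9683 genes (0.0826%) passed. Kcnt1 rose by 1.58 ± 0.32 more in dCA1 (SE, adjusted p 0.0293). In vCA1 it already stood at 15.9, 34.9 and 88.3 CPM in vehicle and reached 29.3, 55.5 and 75.8 CPM, so that its vehicle level was higher there than in dCA1 (a difference of -2.21 for dCA1 minus vCA1, adjusted p 2.76e-09). On the CPM scale of all 235 libraries Smad3 fell in dCA1, from 77.0, 146 and 202 CPM to 81.0, 105 and 154 CPM, and rose in vCA1, from 50.1, 74.0 and 102 CPM to 71.8, 101 and 131 CPM, a difference of -0.84 ± 0.15 (SE, adjusted p 0.018). The fall of Smad3 in dCA1 did not pass with the dentate level as a covariate (-0.29, adjusted p 0.0648) or without dexamethasone libraries 1 and 2 (-0.38, adjusted p 0.0527), and its adjusted p over the alternatives ran from 0.00213 to 0.0648. Ccn2, a matrix protein gene under TGF-beta and YAP control, rose by 1.31 (adjusted p 0.000245, SE 0.24) in dCA1 and had a value of -0.30 in vCA1, which gave a difference of 1.47 ± 0.30 (SE, adjusted p 0.0293). On the scale of all 235 libraries it went from 1.42, 10.1 and 19.6 CPM to 12.6, 23.2 and 40.5 CPM in dCA1. In vCA1 it went from 19.3, 69.4 and 154 CPM to 13.1, 58.8 and 117 CPM. Its median was also higher after dexamethasone in dDG (11.4 to 27.3 CPM) and vDG (33.5 to 60.5 CPM).

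Granule cell markers were among the genes that differed. Dsp did not pass in dCA1 (0.14) and rose by 1.95 in vCA1, from 0, 7.30 and 20.9 CPM to 2.39, 24.4 and 94.0 CPM. The matrix gene Npnt did not pass in dCA1 (-0.41) and rose by 1.22 in vCA1. The dentate level in vCA1 went from a mean of 3.52 in vehicle to 4.24 in dexamethasone libraries, while in dCA1 it went from 5.96 to 5.64. With the dentate level as a covariate 0 of the 9683 genes passed, with 435 at an unadjusted p under 0.05, and the differences were 1.12 for Kcnt1, 1.19 for Ccn2 and -0.59 for Smad3. Dsp and Npnt belong to the 12 genes of that level, so that the covariate holds their own values and their adjusted differences are not given. With RIN as a covariate 1 gene, Smad3, passed (-0.83, adjusted p 0.0427), and without dexamethasone libraries 1 and 2 the count was 3.

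Against the mean response of the other 7 regions, 11 of 11053 genes (0.0995%) passed. Against dDG alone none of these 11 passed in the test above. Fkbp5 rose less in dCA1, by a difference of -0.79 ± 0.13 (SE, adjusted p 8.27e-05), which held at -0.79 with the dentate covariate (adjusted p 0.000127). Its difference from dDG was -0.04 (adjusted p 0.9999), since its log2 fold change was 1.65 in dDG and between 2.35 and 2.79 in the other 6 regions. The vehicle level of Fkbp5 was 19.4, 31.5 and 52.1 CPM in dCA1, 19.7, 32.4 and 49.5 CPM in dDG and 5.25, 11.4 and 27.8 CPM in PFC, and the dexamethasone level was 77.7, 108 and 139 CPM, 87.6, 101 and 145 CPM and 70.6, 91.4 and 118 CPM. In vDG Fkbp5 went from 12.1, 26.2 and 41.2 CPM to 103, 133 and 292 CPM. The vehicle ranges of dCA1 and vDG overlapped, as did the dexamethasone ranges of all 4 regions, and the median after dexamethasone was higher in vDG than in dCA1.

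On the log2 scale Kcnt1 rose more in dCA1 than elsewhere on average, by 1.55 ± 0.29 (SE, adjusted p 0.000937), with 1.27 in dDG and between 0.39 and 0.93 in the other 6 regions. Its vehicle median was 6.57 CPM in dCA1, 10.8 CPM in dDG and between 24.8 CPM (vDG) and 54.6 CPM (PVN) in the other 6. After dexamethasone the median was 34.8 CPM in dCA1, 28.7 CPM in dDG and between 55.5 CPM (vCA1) and 80.0 CPM (PVN) in those 6. The larger log2 rise thus began from a lower level. Smad3 differed by -0.63 ± 0.12 (SE, adjusted p 0.000937). Tead1, a transcription factor of the Hippo pathway, did not pass in dCA1 (log2 fold change 0.23, SE 0.12, adjusted p 0.451) or in dDG (0.29) and rose by 0.60 to 1.21 in the other 6 regions, a difference of -0.65 ± 0.12 (SE, adjusted p 0.000944). Net1, a GTPase exchange factor, rose by 0.55 in dCA1 and by 0.72 to 1.67 elsewhere, a difference of -0.72 ± 0.17 (SE, adjusted p 0.0479). Its adjusted p for that difference ran from 0.0437 to 0.138 over the alternatives, and its rise in dCA1 did not pass without punching date 1 (0.51, adjusted p 0.0602, range over the alternatives 0.0012 to 0.0602). The actin and phosphatase regulator Phactr3 did not pass in dCA1 (0.45) and had values of 0.40 in PFC, 0.46 in vCA1, 0.75 in vDG and 0.80 in dDG. It rose by 1.25 in AMY, 1.28 in PVN and 1.73 in CER. Its difference from the mean of the 7 regions was -0.48 ± 0.11 (SE, adjusted p 0.0479, range over the alternatives 0.00195 to 0.0677), while those from dDG (-0.22, adjusted p 0.942) and vCA1 (0.0095, adjusted p 0.9998) did not pass. The response of dCA1 and the mean of the other regions share no library, but the punches come from the same animals.

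**Figure D5:**
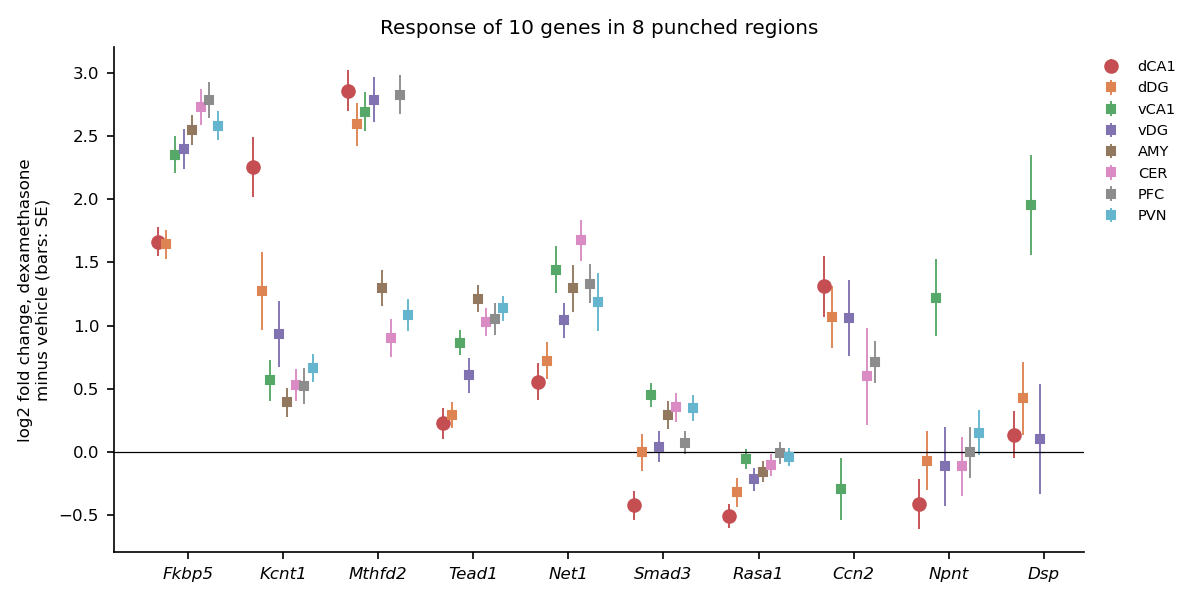
Log2 fold change, dexamethasone minus vehicle, of 10 genes (horizontal) in 8 punched regions, with SE as bars and dCA1 as large circles. Fkbp5 sits at 1.66 in dCA1 and near it in dDG, with all other regions above 2.3, while Kcnt1 is highest in dCA1 at 2.26.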

How the data were processed

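The authors deposited raw counts per gene as 1 table of 27998 genes in 235 libraries. Per the submitters' processing notes, mm10 was used with FastQC 0.11.4, cutadapt, UMI-tools 0.5.4, STAR 2.6.0a, featureCounts 1.6.4, DESeq2 1.30.1 and R 4.0.5, and the annotation and the use of strand are not given in the sources used here, so reads of overlapping genes cannot be told apart. The authors also deposited a variance-stabilised log2 table of dCA1 in which vehicle library 4 is not listed, used here only for that choice of libraries. A reference table of gene names gave symbols for 27645 genes, and 99.9% of the genes shared with GENCODE M21 overlapped their GRCm38 position there.

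Libraries were grouped by title and treatment label. Genes passing filterByExpr were scaled by TMM and tested with edgeR 4.0.16 quasi-likelihood fits without covariates, with Benjamini-Hochberg adjustment over all genes tested (threshold 0.05). CPM are on TMM-scaled totals of the dCA1 libraries, or of all 235 where regions are compared. R 4.3.3, DESeq2 1.42.0, limma 3.58.1, Python 3.11.15, numpy 2.4.6, pandas 2.3.3, scipy 1.17.1 and matplotlib 3.10.9 were used. Permutation tests drew 100000 resamples. The fits were also run on simulated data, and that outcome is not given here. No 2 libraries of an arm agreed within sampling noise (smallest chi-square per degree of freedom 1.58), and library totals limit the precision of low genes.

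The libraries were taken by their labels, while the comparison itself, its gene lists and its tests were chosen with earlier results of these data known. Genes named are the 12 risers and 12 fallers with the largest change at a mean of at least 5 CPM, called list members, up to 6 genes past the threshold of each interaction test (the 3 of smallest p where none passed), up to 10 genes with arms apart and called genes of the vDG and vCA1 contrast. Csf1r, C1qa, Gria2, Prox1 and Per1, and Gpc1, Cxcl12, Socs2, Rasa1, Il1r1 and Dsp beyond the first 6 of their interaction tests, fall outside this rule and were chosen after their values were seen. Also named are Nr3c2, Ttr and the 6 tested CA1 markers, none of which passed between the arms. Replicate numbers paired the samples, since all 13 pairs shared punching date and plate per the labels, and deviations of paired libraries correlated at -0.11 to 0.57 (median 0.27), though only 2 of the 13 dexamethasone libraries correlated best with the vehicle library of their own number.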

Additional observations from a re-analysis of the deposited data

Results flagged for a closer look

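The following values stood out because a region-by-treatment test passed its threshold, against vCA1 or against the mean of the other 7 regions. Against dDG 0 of 9418 genes passed, with 527 at an unadjusted p under 0.05, where the difference was -0.04 for Fkbp5 and -0.11 for Tead1. For Kcnt1 it was 1.20 and passed without the filter on low counts (adjusted p 0.00759, range over the alternatives 0.00759 to 0.9999). All are log2 differences, dCA1 minus the other regions, from edgeR with the animal as a block. Against the mean response of the other 7 regions, the difference was -0.79 for Fkbp5, -0.63 for Smad3, 1.55 for Kcnt1, -0.65 for Tead1, -0.72 for Net1 and -0.48 for Phactr3. It was 0.79 for Mthfd2, which rose by 2.86 in dCA1, by 2.59 to 2.83 in dDG, vCA1, vDG and PFC, and by 0.90 to 1.30 in AMY, CER and PVN. It was 0.50 for the glypican gene Gpc1, 0.56 for the chemokine gene Cxcl12, 0.77 for the cytokine signalling brake Socs2 and -0.38 for the Ras GTPase activator Rasa1. In dCA1 the medians went from 94.6 to 137 CPM for Gpc1, 33.7 to 54.2 CPM for Socs2 and 209 to 142 CPM for Rasa1. That of Cxcl12 went from 66.9 to 62.6 CPM in dCA1 and was lower after dexamethasone in each of the other 7 regions, as in AMY (35.1 to 16.9 CPM). Of these 11 genes, 7 did not pass under at least 1 alternative, with a highest adjusted p of 0.0677 for Phactr3 and Cxcl12, 0.093 for Gpc1, 0.132 for Socs2, 0.138 for Net1, 0.199 for Mthfd2 and 0.287 for Rasa1, and a lowest between 0.00195 and 0.0448.

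Against vCA1, the difference was -0.84 for Smad3, -1.72 for Npnt, 1.47 for Ccn2, -1.0 for A830036E02Rik, 1.58 for Kcnt1, -0.89 for the phosphodiesterase gene Pde1b, -1.41 for the interleukin 1 receptor gene Il1r1 and -1.78 for Dsp. The mean dentate level, with means of 3.52 in the vehicle and 4.24 in the dexamethasone arm of vCA1, is built from 12 genes that include Dsp and Npnt. With it as a covariate the differences were 1.12 for Kcnt1, 1.19 for Ccn2, -0.59 for Smad3, -0.55 for A830036E02Rik, -0.58 for Pde1b and -0.65 for Il1r1, and none of these passed. The part of dentate content in these differences was not tested further.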

How the results depend on the processing

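In dCA1 the counts of 224 genes higher and 184 lower became 122 and 113 with at least 10 counts in every library, where 4572 genes were tested. With the dentate level as a covariate 342 were lower. Leaving out 1 library at a time gave 196 to 270 higher and 146 to 208 lower. With the replicate block the counts were 305 and 247, with 218 and 171 genes shared, and of 91 named genes that changed, Dusp1 and Fat4 did not pass with it. The other settings (DESeq2, upper-quartile scaling, no filter, date and plate, RIN, dentate axis, libraries of RIN 5 or more, and without date 1, chosen after seeing the data) moved the counts by less than 1.5 times. Without date 1, 10 of the 91 did not pass. Against dDG, 29 genes passed with no filter. Against vCA1, 2 passed with no animal block, 1 with RIN, 94 with no filter, 0 with the dentate level and 3 without dexamethasone libraries 1 and 2 (chosen after seeing the data). Against the other 7 regions, 7 passed with no animal block, 4 with no filter and 7 with the dentate level. Between dCA1 and dDG in vehicle animals 54 passed with no animal block. The cause of these shifts was not tested. Depth limits low genes: at the sample size and depth of dCA1 a gene of a few CPM rests on a few counts per library.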

Other observations

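Choroid plexus transcripts varied between dCA1 punches far more than between arms. The summed level of 11 choroid plexus markers ran from 50.4 to 2400.4 CPM in vehicle libraries (median 155) and from 45.7 to 3308 CPM in dexamethasone libraries (median 95.9). The transthyretin transcript Ttr, one of these markers, ran from 21.0 to 2265 CPM and from 22.7 to 3094 CPM. The blood markers ran from 77.5 to 719 CPM in vehicle and from 64.4 to 371 CPM in dexamethasone libraries.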
